A study of Mus musculus with 12 samples.

Results

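Afp, H19, Igf2, Gpc3 and Cd24a are oncofetal genes of the liver, that is, genes known to be transcribed in fetal liver, low in healthy adult liver and active again in many liver tumours. They were picked by symbol, with earlier results of these data known, from a table of 24532 genes, and all 5 were found in it. Bulk liver RNA was sequenced from 12 mice aged 20 wk of the mixed strain C57BL/6x129S6/SvEv, 4 mice per group. The groups were LXR agonist-fed Atp7b-/- mice, called KO_drug here, Atp7b-/- mice without the agonist, called KO, and Het mice, which the series design names as the control. LXR stands for the liver X receptors, nuclear receptors that respond to oxidised sterols. Atp7b encodes the copper-exporting ATPase of hepatocytes, and its loss in people causes Wilson disease, in which copper builds up in the liver. The labels name neither the agonist, its dose or its duration, nor the sex of the mice or the deleted part of Atp7b. Nothing in them says how the 4 mice of a group are related, so the errors below measure the spread between these samples.

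In fetal mouse liver, hepatoblasts secrete alpha-fetoprotein and transcribe the imprinted H19-Igf2 locus at a high level, and both are shut down in the weeks after birth. H19 is a long noncoding RNA made from the maternal allele, Igf2 a fetal growth factor made from the paternal allele, and both are driven by shared enhancers. Gpc3 is a cell-surface heparan sulfate proteoglycan that binds growth signals, and Cd24a is a small sialic acid-rich surface protein of progenitor cells, bile duct cells and several kinds of blood cell. In mice, the repressors Zhx2 and Zbtb20 are known to hold Afp silent after birth, and Zhx2 has been linked to H19 and Gpc3 as well.

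On build GRCm38.p6 (mm10), Afp spans chr5:90490714-90508907 and lies 14111 bases from Alb and 10041 bases from Afm, 2 other genes of the albumin family. RefSeq promoter windows of Afp and Alb are shown because these neighbours differed in opposite directions in KO, and that of Gpc3 because its level followed that of Igf2 on another chromosome. The 250 bases before the annotated starts of Afp and Alb (plus strand) and of Gpc3 (minus strand, on the X chromosome) are given 5′ to 3′. Capitals mark motif matches on either strand. The motifs searched were GTTAAT, part of the site of the hepatocyte factor HNF1, then the CCAAT box, then the TATA box, spelled TATAAA here, and the GC box, spelled GGGCGG here.
Afp, chr5:90490464-90490713: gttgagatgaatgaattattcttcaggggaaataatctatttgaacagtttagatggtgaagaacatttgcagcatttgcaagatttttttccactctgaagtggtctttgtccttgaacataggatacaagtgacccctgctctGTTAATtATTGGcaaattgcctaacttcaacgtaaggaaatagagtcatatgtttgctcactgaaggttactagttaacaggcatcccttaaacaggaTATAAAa
Alb, chr5:90460620-90460869: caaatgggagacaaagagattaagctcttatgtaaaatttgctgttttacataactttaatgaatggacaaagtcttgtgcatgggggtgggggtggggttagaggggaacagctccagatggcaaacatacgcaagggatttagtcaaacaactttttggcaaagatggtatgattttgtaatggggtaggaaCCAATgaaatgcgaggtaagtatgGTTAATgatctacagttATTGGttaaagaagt
Gpc3, chrX:52613975-52614224: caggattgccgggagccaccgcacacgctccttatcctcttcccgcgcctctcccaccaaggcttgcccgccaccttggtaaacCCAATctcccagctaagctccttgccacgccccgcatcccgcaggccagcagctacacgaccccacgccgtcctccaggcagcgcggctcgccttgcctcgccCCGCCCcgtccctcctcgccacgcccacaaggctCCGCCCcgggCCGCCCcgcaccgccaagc
The windows of Afp and Alb each held 1 GTTAAT, which 6.43% of 32851 such windows in the table held. Gpc3 held none and had 3 GC boxes, a motif found in 32.7% of windows. CCAAT was in 33.8% of windows and in all 3 shown, and TATAAA was in 12.4% of windows and, of these 3, in Afp alone. CACGTG (E-box), searched too and held by 6.02% of windows, was in none of the 3. None of these motifs overlapped another, and a match is a description of letters, not of a bound factor.

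H19 spans chr7:142575530-142578146 and ends 72621 bases from Igf2, which spans chr7:142650768-142666816, both on the minus strand of mm10. The H19 transcript holds the precursor of a microRNA, miR-675, whose mature forms are shown because their host was the gene with the largest KO-to-Het ratio of the 5; capitals mark the seed, bases 2 to 8.
mmu-miR-675-5p: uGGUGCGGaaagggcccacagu
mmu-miR-675-3p: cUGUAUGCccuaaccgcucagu
The arms have different seeds, and total RNA libraries of this kind do not measure mature microRNAs. The precursor entry Mir675 had 1 count in each KO_drug library, 1, 1, 5 and 2 counts in KO 2, KO 4, KO 5 and KO 6, and 0, 0, 1 and 0 in Het 1 to Het 4. Igf2 overlaps Mir483, which had no count in any library, and the antisense gene Igf2os, which had at most 3 counts in any library. The library kit keeps strand, but the strand setting of the counting is not given in the sources used here.

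Library totals were 18841560 to 20174103 counts in KO_drug, 16535938 to 28329751 counts in KO and 19724743 to 25054822 counts in Het, and 13379 genes passed a filter on low counts, all 5 among them. Levels are counts per 1e6 counts (CPM) after TMM scaling, which sets the middle of the gene changes near 0. Atp7b had 1.27 to 3.49 CPM in KO_drug, 1.68 to 2.71 CPM in KO and 9.90 to 16.2 CPM in Het. Xist, the RNA of the inactive X chromosome of female cells, was high in 2 libraries, KO 5 (81.8 CPM) and KO 6 (17.8 CPM), and no other library passed 0.425 CPM. The Y-linked gene Ddx3y had 0.379 CPM in KO 5, 64.4 CPM in KO 6 and 79.5 to 111 CPM in the other 10 libraries. KO 6 was the 1 library high in both, and whether it holds RNA of more than 1 animal was not tested. KO 5 and KO 6 therefore stand apart from the rest. The changes of the 5 genes are given with and without them, and so are counts of other genes that moved by over 1.5 times without them and named genes whose call was lost.

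Afp, the main secreted protein of fetal plasma and a relative of albumin, had 26.34, 17.56, 14.45 and 12.96 CPM in KO_drug 1 to KO_drug 4, 24.2, 193, 108 and 203 CPM in KO 2, KO 4, KO 5 and KO 6, and 4.75, 3.02, 1.64 and 2.5 CPM in Het 1 to Het 4. Every KO_drug and every KO liver stood above every Het liver, and KO 2 lay among the KO_drug livers, far below the other 3 KO livers. The group means were 17.8 ± 5.99 CPM in KO_drug, 132 ± 83.4 CPM in KO and 2.98 ± 1.31 CPM in Het (SD, n = 4 each). KO stood above Het by 5.47 on the log2 scale (SE 0.60), a 44.2-fold difference, and KO_drug stood below KO by 7.39-fold (log2 change -2.88, SE 0.52). With KO 2 and KO 4 alone as KO, these log2 changes were 5.13 and -2.56. KO_drug was still above Het, by 5.98-fold (log2 change 2.58, SE 0.55). Afp was thus intermediate in KO_drug.

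H19 had 10.1, 2.45, 0.607 and 0.743 CPM in KO_drug 1 to KO_drug 4, 7.39, 27.2, 437 and 224 CPM in KO 2, KO 4, KO 5 and KO 6, and 0, 0.208, 0.106 and 0.357 CPM in Het 1 to Het 4. KO 5 and KO 6, the libraries with Xist, were far above the other KO livers, and KO_drug 1 lay above KO 2. The means were 3.47 ± 4.49 CPM in KO_drug, 174 ± 201 CPM in KO and 0.168 ± 0.152 CPM in Het (SD, n = 4 each). The Het level rests on 13 counts over the 4 livers, against 272 counts in KO_drug and 21103 counts in KO. The fitted KO-to-Het difference was 9.96 on the log2 scale (SE 1.62), and that of KO_drug from KO was -5.63 (SE 1.19). With KO held by KO 2 and KO 4 alone, these were 6.57 and -2.27. KO_drug stood above Het by 4.33 (SE 1.69), and by 2.87 without KO_drug 1, the highest liver of its group.

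Igf2, the growth factor that shares the locus and the enhancers of H19, had 0.808, 0.313, 0.441 and 0.319 CPM in KO_drug 1 to KO_drug 4, 1.29, 4.15, 22.6 and 17.0 CPM in KO 2, KO 4, KO 5 and KO 6, and 1.29, 0.364, 0.265 and 0.612 CPM in Het 1 to Het 4. All KO livers were above all KO_drug livers, while KO 2 and Het 1 were level to 3 digits and KO_drug lay inside the Het range. The means were 0.470 ± 0.233 CPM in KO_drug, 11.3 ± 10.2 CPM in KO and 0.633 ± 0.462 CPM in Het (SD, n = 4 each), the KO_drug value resting on 36 counts over 4 livers. KO stood above Het by 4.14 on the log2 scale (SE 0.80) and KO_drug below KO by 23.6-fold (log2 change -4.56, SE 0.83). With KO 2 and KO 4 alone as KO, the changes were 2.03 and -2.46. KO_drug and Het differed by -0.42 (SE 0.91), less than 1 SE.

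Per length, on the FPKM scale the authors deposited, H19 exceeded Igf2 in every KO_drug and KO liver and in none of the Het livers. The ratio of H19 to Igf2 FPKM was 22.7, 16.3, 2.47 and 4.56 in KO_drug 1 to KO_drug 4, and 10.1, 11.7, 31.7 and 21.4 in KO 2, KO 4, KO 5 and KO 6. It was 0, 0.890, 0.449 and 0.913 in Het 1 to Het 4. The ratios of KO_drug and Het rest on few counts. Igf2 had 6 to 16 counts per liver in KO_drug and 5 to 25 in Het. H19 had 11 to 200 counts in KO_drug and 0 to 7 in Het. Igf2 FPKM was 0.0890% to 0.483% of that of Igf1, its adult counterpart, in KO_drug, 0.586% to 9.55% in KO and 0.0609% to 0.232% in Het. Afp was 0.0298% to 0.0574% of Alb in KO_drug, 0.119% to 0.999% in KO and 0.00197% to 0.0110% in Het, so the ranges of the 3 groups did not overlap and Afp stayed below 1% of Alb in every liver.

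**Figure D1:**
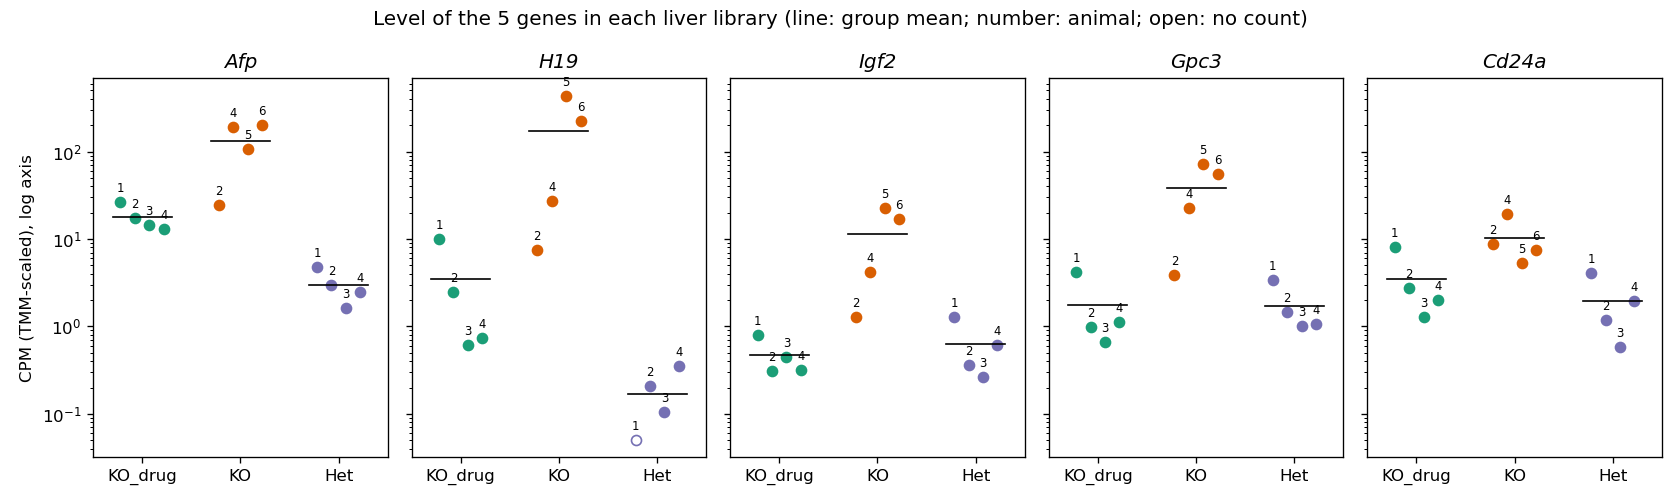
Level of each of the 5 genes in each of the 12 livers, in TMM-scaled CPM on a log axis, by group; points are livers numbered by animal, lines are group means, and the open point is a library with no count. KO livers sit above Het livers for every gene, and KO 5 and KO 6 lead for H19, Igf2 and Gpc3 but not for Cd24a.

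Gpc3, the X-linked glypican, had 4.19, 0.990, 0.662 and 1.115 CPM in KO_drug 1 to KO_drug 4, 3.84, 22.9, 71.7 and 55.7 CPM in KO 2, KO 4, KO 5 and KO 6, and 3.35, 1.46, 1.01 and 1.07 CPM in Het 1 to Het 4. KO_drug and Het covered nearly the same range, KO 2 was just above Het 1 and just below KO_drug 1, and KO 5 and KO 6 were again highest. The means were 1.74 ± 1.64 CPM in KO_drug, 38.6 ± 30.8 CPM in KO and 1.72 ± 1.11 CPM in Het (SD, n = 4 each). KO stood above Het by 4.48 (log2, SE 0.82), a 22.3-fold difference, and KO_drug below KO by 21.9-fold (log2 change -4.45, SE 0.82). With KO 2 and KO 4 alone as KO, these were 2.89 and -2.88. KO_drug and Het differed by 0.03 (SE 0.84), a value whose sign turned when KO_drug 1 was left out (-0.90). Set against Gpc4, another X-linked glypican, Gpc3 FPKM was 2.48% to 20.2% in KO_drug, 12.5%, 94.7%, 206% and 170% in KO 2, KO 4, KO 5 and KO 6, and 2.14% to 12.4% in Het.

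Cd24a had 8.02, 2.76, 1.27 and 2.02 CPM in KO_drug 1 to KO_drug 4, 8.77, 19.2, 5.31 and 7.40 CPM in KO 2, KO 4, KO 5 and KO 6, and 4.13, 1.20, 0.582 and 1.94 CPM in Het 1 to Het 4. It was the 1 gene of the 5 that was highest in KO 4 and KO 2 rather than in the libraries with Xist. The means were 3.52 ± 3.07 CPM in KO_drug, 10.2 ± 6.18 CPM in KO and 1.96 ± 1.55 CPM in Het (SD, n = 4 each). KO stood above Het by 5.15-fold (log2 change 2.36, SE 0.64) and KO_drug below KO by 2.87-fold (log2 change -1.52, SE 0.61), the smallest of the 5 differences in both cases. With KO 2 and KO 4 alone as KO, these log2 changes were 2.77 and -1.94, and Igf2 had a smaller KO-to-Het change (2.03). KO_drug stood above Het by 0.84 (log2, SE 0.64), and by 0.04 without KO_drug 1.

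By group mean FPKM, which allows genes to be ordered, the order in KO was H19 (74.5 ± 87.3), Afp (62.6 ± 39.6), Gpc3 (16.7 ± 13.2), Cd24a (5.62 ± 3.72) and Igf2 (2.92 ± 2.69), in mean ± SD of 4 livers. The mean ± SD intervals of all 4 pairs of neighbours in this order overlapped. H19 exceeded Afp in KO 5 (191.2 against 51.87 FPKM) and barely in KO 6 (91.01 against 90.37). It lay below Afp in KO 2 (3.13 against 11.3) and KO 4 (12.5 against 97.0). The KO medians were 71.1 FPKM for Afp and 51.7 FPKM for H19. Gpc3 lay below Cd24a in KO 2 (1.65 against 4.69) and KO 4 (10.6 against 11.1). In KO_drug Afp led with 6.64 ± 2.49 FPKM, followed by Cd24a with 1.52 and H19 with 1.20 ± 1.60. In Het, Afp led with 1.00 ± 0.562 FPKM and H19 was last with 0.0394 ± 0.0417.

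All 5 genes had all 4 KO livers above all 4 Het livers, a pattern that 22.2% of the 13379 tested genes also had. In KO_drug against KO, Igf2 alone had all 4 KO_drug livers below all 4 KO livers, a pattern of 12.5% of tested genes, and each of the other 4 had 3 KO_drug livers below every KO liver. In KO_drug against Het, Afp and H19 had all 4 KO_drug livers above all Het livers, a pattern of 13.6% of tested genes. These values chose the genes and are given as a description with no test. The median log2 change of the 5 was 4.48 in KO against Het, -4.45 in KO_drug against KO and 0.84 in KO_drug against Het, beside 0.02, -0.02 and 0.00 over all tested genes. The first 2 comparisons share the KO livers, so their opposite signs are not separate observations. With library totals in place of TMM scaling, the median of all genes moved to 0.54, -0.36 and 0.18, and the changes here are relative to the TMM median. On that scale 51.6% of tested genes rose and 3.44% fell in KO against Het, and 2.65% rose and 29.2% fell in KO_drug against KO. These are the shares to set beside each total-count value below, whereas with TMM 23.0% rose and 17.7% fell in KO against Het.

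**Figure D2:**
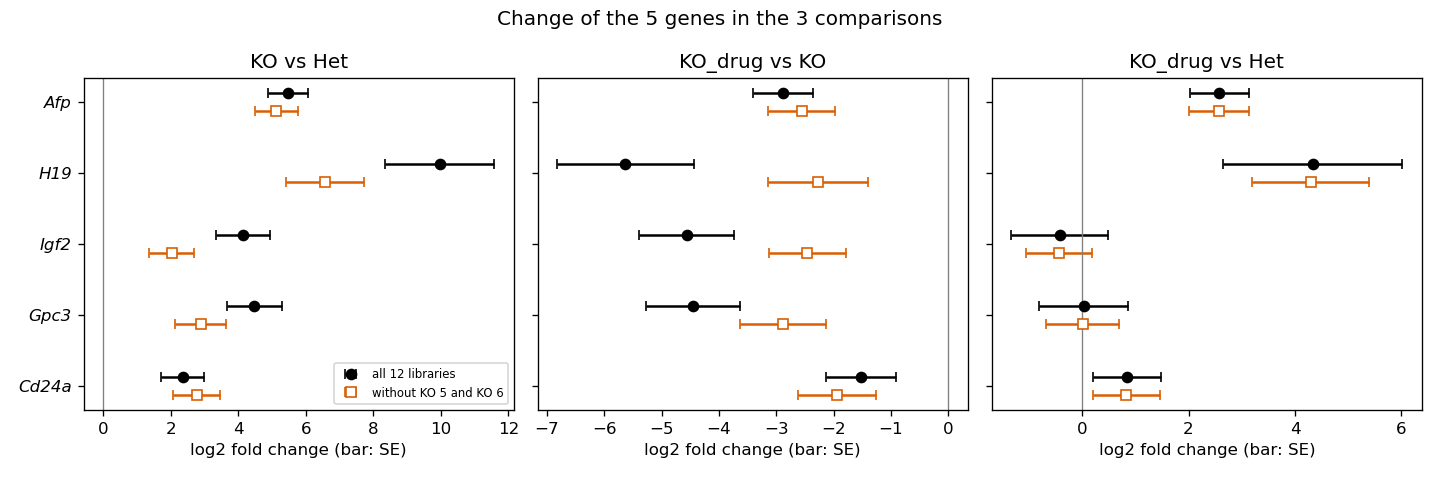
Log2 fold change of the 5 genes in the 3 comparisons with its SE; filled points use all 12 livers, open squares leave out KO 5 and KO 6. For H19, Igf2 and Gpc3 the changes that involve KO are smaller without those 2 livers (6.57, 2.03 and 2.89 in KO against Het), while those of Afp (5.13) and Cd24a (2.77) are not moved beyond their SE.

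The KO livers varied more among themselves in these genes than in most others. The SD of log2 CPM over the 4 KO livers was 1.43 for Afp, 2.71 for H19, 1.88 for Igf2, 1.90 for Gpc3 and 0.779 for Cd24a, beside a median of 0.249 over tested genes. In KO, H19 spanned 59.1-fold between its lowest and highest liver, and Cd24a 3.61-fold. The liver numbered 1 was the highest of its group for all 5 genes in KO_drug and for Afp, Igf2, Gpc3 and Cd24a in Het, while KO 2 was the lowest KO liver for Afp, H19, Igf2 and Gpc3. KO_drug 1 was also the highest of its group in summed macrophage markers (718 CPM, against 305 to 433 in the other KO_drug livers), markers of dividing cells (187 CPM, against 78.9 to 107) and neutrophil markers (36.6 CPM, against 11.2 to 18.2). Het 1 had the highest erythroid sum of its group (1964 CPM, against 203 to 357 in the other Het livers) and the lowest hepatocyte sum. The part of these cells in the levels of the 2 livers was not tested. The labels tie no liver of one group to a liver of another.

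Igf2 and Gpc3, which lie on different chromosomes, were the pair most alike. Their Pearson correlation of log2 CPM over the 12 libraries was 0.975, and 0.912 after each group's mean was taken out. Afp and H19 had 0.912 over all libraries and 0.529 within groups, whereas Cd24a and H19 had 0.689 and 0.030. These are descriptions without a p, over libraries that share their groups and their scaling. Among 12168 named genes, those closest to Afp over the 12 libraries were Tpm1 (0.969), an actin-binding tropomyosin, Cr2 (0.961), a complement receptor, and Bace2 (0.957), a membrane protease. H19 was closest to Scml2 (0.979), an X-linked Polycomb protein, Rbp2 and Ric3 (0.966), and Igf2 to Gpc3 (0.975), Rab44 (0.957) and Cyp3a41a (0.948). Gpc3 was closest to Igf2, Slc25a4 (0.961) and Hspa12a (0.942), and Cd24a to Ncoa7 (0.977), Aida (0.954) and A4galt (0.953). Some of these genes were without a count in several livers. Rab44 had none in any KO_drug liver or in Het 2 to Het 4, and Rbp2 none in KO_drug 3, KO_drug 4 or any Het liver. Cr2 had none in Het 2 to Het 4, Scml2 none in Het 1 to Het 3 and A4galt none in Het 2 or Het 3. By Spearman's rank correlation Tpm1, Scml2 and Ncoa7 were again among the closest 3 of Afp, H19 and Cd24a, at 0.986, 0.991 and 0.993.

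Within groups, after each group's mean was taken out, Scml2 was again among the 3 genes closest to H19 (0.956), and Ncoa7 (0.950) and A4galt (0.909) among those closest to Cd24a. Afp was nearest to Fads3 (0.924), a desaturase family member, H19 to Papln (0.966), Igf2 to Mrpl36 (0.979), Gpc3 to Sult2a1 (0.977) and Sult2a2 (0.971). Sult2a2 had no count in KO_drug 2 to KO_drug 4, KO 2 and Het 2 to Het 4. Sult2a1 had at most 6 counts in those livers, so both values rest on the remaining livers. Cyp3a41a, Sult2a1 and Sult2a2 are known as genes of female mouse liver, and the libraries with Xist were those highest in Igf2 and Gpc3; the part of sex in these levels was not tested.

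In the albumin cluster, Alb and Afm fell in KO, and Gc did not pass the test. Alb, the main plasma protein of adult liver, averaged 28280 ± 10170 CPM in KO and 63290 ± 17240 CPM in Het and fell by 1.16 on the log2 scale (SE 0.31, edgeR adjusted p 0.00861). Afm, the vitamin E-binding afamin, fell by 1.07 (SE 0.23, edgeR adjusted p 0.00301), and Gc, the vitamin D-binding protein, had a log2 change of -0.10 (edgeR adjusted p 0.746). Of these 3 genes 2 fell in KO, where 17.7% of all tested genes fell, and none passed the test in KO_drug against KO, where Alb had a log2 change of 0.60 (SE 0.30, edgeR adjusted p 0.185). With total-count scaling Gc was called higher in KO (0.44, adjusted p 0.0355), and without KO 4 it was at 0.02. Alb was not called with log2(FPKM + 0.1) or log2(FPKM + 1) in limma (adjusted p 0.14 and 0.112).

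Of the 2 repressors, Zbtb20 fell in KO and Zhx2 did not pass the test. Zhx2 averaged 15.6 ± 0.986 CPM in KO_drug, 13.5 ± 3.73 CPM in KO and 16.8 ± 0.393 CPM in Het, with a log2 change of -0.32 in KO against Het (SE 0.16, edgeR adjusted p 0.129) that turned to 0.20 with total-count scaling and to 0.18 and 0.14 with log2(FPKM + 0.1) and log2(FPKM + 1), and was called without KO 2 (-0.53, adjusted p 0.0043). Zbtb20 averaged 40.7 ± 8.19 CPM in KO_drug, 28.6 ± 4.85 CPM in KO and 44.8 ± 10.2 CPM in Het and fell by 0.64 in KO (SE 0.19, edgeR adjusted p 0.0141), a call lost with total-count scaling (-0.12, adjusted p 0.591) and with KO 2 and KO 4 alone as KO (adjusted p 0.0579). Of 17 regulators of Afp and of postnatal silencing, 1 rose and 9 fell in KO against Het, where 23.0% of tested genes rose and 17.7% fell, and 3 rose and 5 fell with total-count scaling. Among those that fell were the hepatocyte factors Hnf4a (log2 change -0.93, SE 0.13, edgeR adjusted p 0.000194), Foxa1 (-1.49) and Cebpa (-1.36), and the 1 that rose was Sox4 (1.69), a factor of progenitor cells. In KO_drug against KO, where 8.80% of tested genes rose and 11.0% fell, Sox4 fell by 1.82 (SE 0.42, edgeR adjusted p 0.0102), Foxa1 rose by 0.80 (SE 0.26, edgeR adjusted p 0.0414) and the other 15 did not pass. The call of Foxa1 was lost with total-count scaling (adjusted p 0.216) and without any 1 of KO_drug 2, 3 and 4, the 4 KO livers, and Het 2, 3 and 4 (adjusted p 0.0514 to 0.129), and with KO 2 and KO 4 alone as KO (0.61, adjusted p 0.169).

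The other 5 genes listed as responding to Zhx2 in mouse liver were tested. Of these 2 rose and 3 fell in KO, where 23.0% of tested genes rose and 17.7% fell. In KO against Het, Cyp2a4 rose by 5.26 (SE 0.41, edgeR adjusted p 1.35e-06) and Lpl, lipoprotein lipase, by 2.33 (SE 0.31). Elovl3 (-3.46), Hsd3b5 (-4.36) and Cyp4a12a (-1.14), enzymes of higher level in male mice, fell, Hsd3b5 with an adjusted p of 0.0526 where KO 2 and KO 4 alone stood for KO and Cyp4a12a with 0.0574 under total-count scaling. In KO_drug against KO, Lpl rose further by 1.75 (SE 0.31, edgeR adjusted p 0.00286), Elovl3 rose by 2.60 (adjusted p 0.0544 without KO_drug 3) and Cyp4a12a by 1.39, while Cyp2a4 (0.32) did not pass. Cyp2a4 and Cyp4a12a belong to families of near-identical genes, whose reads the counting could have split.

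Around H19 and Igf2, 9 neighbouring genes passed the filter, of which 3 rose and 2 fell in KO, where 23.0% of tested genes rose and 17.7% fell. With total-count scaling 5 rose and none fell, where 51.6% of tested genes rose, and with KO 2 and KO 4 alone as KO 1 rose and 1 fell. The 3 were Lsp1, a leukocyte gene (2.42, SE 0.43, edgeR adjusted p 0.000865), the lysosomal protease Ctsd (0.80) and Slc22a18 (0.98). Ctsd and Slc22a18 were not called with KO 2 and KO 4 alone as KO (adjusted p 0.0711 and 0.0876). Lsp1 fell by 2.69 in KO_drug against KO (SE 0.44, edgeR adjusted p 0.00213), the 1 neighbour called there.

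Other imprinted genes of fetal growth were measured too, and 6 of 16 rose and 2 fell in KO against Het, where 23.0% of tested genes rose (11 and 0 with total-count scaling, 3 of 17 and 1 with KO 2 and KO 4 alone as KO). Peg10, a retroposon-derived gene of placenta and fetal liver, averaged 0.442 ± 0.214 CPM in KO_drug, 1.52 ± 0.448 CPM in KO and 0.427 ± 0.210 CPM in Het. It rose by 1.81 in KO (SE 0.47, edgeR adjusted p 0.00745) and fell by 1.75 in KO_drug against KO (SE 0.46, edgeR adjusted p 0.0188), a call lost without KO_drug 2, 3 or 4 or KO 4 (adjusted p 0.0546 to 0.0651). Rian, a noncoding RNA of the Dlk1-Meg3 locus, averaged 0.254 ± 0.192 CPM in KO_drug, 12.5 ± 6.49 CPM in KO and 3.90 ± 2.28 CPM in Het and was the 1 imprinted transcript of the list lower in KO_drug than in Het (-3.93, SE 0.71, edgeR adjusted p 0.00149). Dlk1, a hepatoblast surface protein of the same locus, was too low to test, with 0.0880 to 0.634 CPM in the KO livers, no count in any Het liver and a count in 1 KO_drug liver only.

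Igf1, the growth factor of adult liver, and the receptor that drives it fell in KO. Igf1 averaged 339 ± 121 CPM in KO_drug, 404 ± 57.8 CPM in KO and 784 ± 127 CPM in Het and fell by 0.96 in KO (SE 0.22, edgeR adjusted p 0.00387; 0.111 with total-count scaling). Ghr, the growth hormone receptor, fell by 1.45 (SE 0.21) and Igfbp2, a binding protein, by 2.32 (SE 0.30, edgeR adjusted p 8.75e-05). Igfbp2 rose by 2.88 in KO_drug against KO (SE 0.31, edgeR adjusted p 0.000291). Igf2r, the receptor that clears Igf2, rose by 0.65 in KO (SE 0.21, edgeR adjusted p 0.025), and was not called with KO 2 and KO 4 alone as KO (0.208), without KO 6 (0.0763) or without Het 2 (0.051). Of 16 tested genes of the axis other than Igf2, 4 rose and 5 fell in KO, where 23.0% of tested genes rose and 17.7% fell, and 5 rose and 2 fell with total-count scaling. Between KO_drug and KO 2 rose and 1 fell in KO_drug, where 8.80% of tested genes rose and 11.0% fell, and 2 of 17 fell with KO 2 and KO 4 alone as KO.

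Of the 3 fetal RNA-binding proteins named for Igf2 mRNA, Igf2bp2 rose by 1.47 in KO (SE 0.34, edgeR adjusted p 0.00439). Igf2bp3 was too low to test and had 0, 0, 0 and 0.159 CPM in KO_drug 1 to KO_drug 4, 0.293, 0.840, 2.57 and 2.58 CPM in KO 2, KO 4, KO 5 and KO 6, and 0, 0, 0 and 0.102 CPM in Het 1 to Het 4. All KO livers were above all others, in the same order of livers as Gpc3 but for KO 5 and KO 6. Igf2bp1 averaged 0.0266 CPM in KO_drug, 0.0431 CPM in KO and 0 in Het.

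The glypicans Gpc4 and Gpc1 were not called in any comparison. Gpc4 averaged 26.6 ± 4.26 CPM in KO_drug, 31.4 ± 4.75 CPM in KO and 35.0 ± 11.3 CPM in Het (log2 change -0.16 in KO against Het, edgeR adjusted p 0.566), and its change was 0.36 with total-count scaling and 0.08 without Het 4. Gpc1 had a log2 change of 0.36 in KO against Het (SE 0.39, edgeR adjusted p 0.491), called at 0.91 with total-count scaling (adjusted p 0.0497) and at 0.94 without Het 3 (adjusted p 0.0314), and of -1.20 in KO_drug against KO (SE 0.40, edgeR adjusted p 0.0519). Of 10 glypicans, syndecans and their modifying enzymes, 3 rose and 3 fell in KO (5 and 2 with total-count scaling), where 23.0% of tested genes rose and 17.7% fell. Sulf1 (a relative of Sulf2), the syndecan Sdc3 and Notum fell in KO_drug against KO, where 11.0% of tested genes fell. With KO 2 and KO 4 alone as KO, Notum (adjusted p 0.101) and Sulf1 (adjusted p 0.1) were not called there. Sulf1 was also not called without any 1 of KO_drug 1, 3 and 4, KO 4 and KO 6 (adjusted p 0.0576 to 0.0878), nor Sdc3 without KO_drug 3 or KO 2 (adjusted p 0.0579 and 0.0505). In KO against Het, Sulf2, which trims sulfates from heparan chains, rose by 2.70 (SE 0.29). Notum, which releases glypicans and inactivates Wnt proteins, fell by 1.86 in that comparison (SE 0.20, edgeR adjusted p 2.12e-05). Of 20 Wnt and hedgehog targets and receptors, 1 rose and 4 fell in KO against Het, where 23.0% of tested genes rose and 17.7% fell. The 1 that rose was Ccnd1 of the cell cycle (2.43). Among those that fell were Cyp2e1 (-1.56) and Glul (-1.40), which are Wnt-dependent genes of pericentral hepatocytes. With total-count scaling 4 rose and 2 fell. Of these 20, 2 rose and 2 fell in KO_drug against KO (1 of 21 with KO 2 and KO 4 alone as KO). There 8.80% of tested genes rose and 11.0% fell.

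Most partners and companions of Cd24a rose in KO. Of 12 tested, 9 rose and none fell in KO, where 23.0% of tested genes rose, and with total-count scaling 12 rose, where 51.6% did. Between KO_drug and KO 7 fell in KO_drug, where 11.0% of tested genes fell, and with total-count scaling 11 fell, where 29.2% did. In KO against Het, Src, a kinase linked to CD24 signalling, rose by 3.18 (SE 0.22, edgeR adjusted p 5.87e-07). Prom1, a progenitor surface protein, rose there by 5.20 (SE 0.95, edgeR adjusted p 0.000944). Sirpa, a myeloid receptor, rose by 2.15 in KO and fell by 2.18 in KO_drug against KO (SE 0.47, edgeR adjusted p 0.00697), and Lyn, a kinase of blood cells, fell there by 0.84 (SE 0.19, edgeR adjusted p 0.00943). Src alone of the 12 was higher in KO_drug than in Het (2.05, SE 0.22, edgeR adjusted p 2.18e-05).

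Of 30 other fetal liver and hepatoblast genes 18 passed the filter, and 12 of the 18 rose and 1 fell in KO, where 23.0% of tested genes rose. In KO_drug against KO 9 fell and 2 rose, where 11.0% of tested genes fell and 8.80% rose. In KO_drug against Het 5 rose and 1 fell (2 with KO 2 and KO 4 alone as KO), where 13.0% of tested genes rose and 8.45% fell. The set includes genes that passed the filter only through the group in which they were high. Golm1, a Golgi protein used as a liver tumour marker, rose by 3.44 in KO (SE 0.35, edgeR adjusted p 1.31e-05) and fell by 2.87 in KO_drug against KO (SE 0.34, edgeR adjusted p 0.000478). Spink1, a protease inhibitor, had 2.70 to 17.5 CPM in KO_drug, 26.3 to 39.3 CPM in KO and no count in any Het liver. Fbln1, a matrix protein (1.51, adjusted p 0.0501 without KO_drug 3), and the desaturase Scd2 (2.85) were the 2 that rose in KO_drug against KO. Among 22 adult hepatocyte genes, none rose and 14 fell in KO (5 with total-count scaling), where 17.7% of tested genes fell. In KO_drug against KO 9 of them rose and none fell (6 and 1 with total-count scaling), where 8.80% of tested genes rose.

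**Figure D3:**
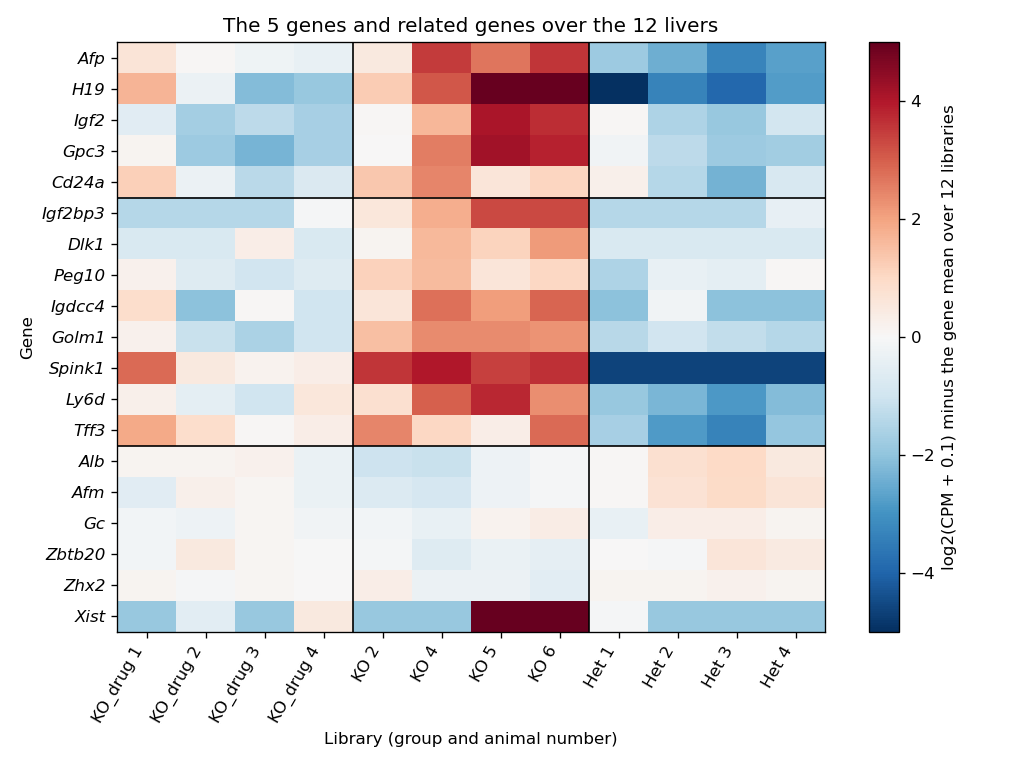
Level of the 5 genes (top block), 8 other fetal genes, 5 relatives and regulators, and Xist in each liver, as log2(CPM + 0.1) minus the gene's mean over 12 livers; colours stop at 5 in both directions. The fetal genes shown are highest in the KO columns, whereas Alb and Afm are highest in Het columns. Not all listed fetal genes are shown: Fbln1 and Scd2, which rose in KO_drug against KO, are left out. On this colour scale Zhx2 hardly varies.

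In bulk liver, fewer cells of a type and less RNA per cell cannot be told apart, and several sets of cell markers differed between the same groups. Beside the marker counts, 23.0% of all tested genes rose and 17.7% fell in KO against Het. In KO_drug against KO 11.0% fell, and in KO_drug against Het 13.0% rose. Of 12 cholangiocyte and ductular markers, 6 rose and 1 fell in KO against Het (6 and none with KO 2 and KO 4 alone as KO), and 4 fell in KO_drug against KO (2 with KO 2 and KO 4 alone as KO). Their summed level was 27.1 to 39.2 CPM in KO_drug, 83.4 to 162 CPM in KO and 27.8 to 31.6 CPM in Het, with Cldn7 at 0 in every Het liver. The highest liver, KO 4, was also the highest for Cd24a. All 10 markers of dividing cells rose in KO, with sums of 78.9 to 187 CPM in KO_drug, 143 to 240 CPM in KO and 6.30 to 17.2 CPM in Het. Of these 10, 1 fell in KO_drug against KO (4 with total-count scaling, none with KO 2 and KO 4 alone as KO), and 8 were higher in KO_drug than in Het. Dividing cell sums in KO_drug were thus all above those of Het, as were the levels of Afp and H19, while Igf2, Gpc3 and Cd24a overlapped the Het range. The relation of these genes to dividing cells was not tested.

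Markers of immune cells were highest in KO as well. The same shares apply to the counts below: 23.0% of tested genes rose and 17.7% fell in KO, and 11.0% fell in KO_drug against KO. All 9 macrophage and Kupffer cell markers rose in KO and 7 fell in KO_drug against KO, with sums of 305 to 718 CPM in KO_drug, 716 to 1580 CPM in KO and 325 to 425 CPM in Het. Of 9 listed neutrophil markers 6 passed the filter, which a gene can do through the group in which it is high. All 6 rose in KO, and 2 fell in KO_drug against KO. Sums over the 9 were 11.2 to 36.6 CPM in KO_drug, 17.7 to 100 CPM in KO and 2.43 to 11.9 CPM in Het. Ly6g, Mpo and Elane did not pass. Ly6g was at 0 in every KO_drug and Het liver and in 1 KO liver. Mpo was at 0 in 3 KO_drug livers, no KO liver and 2 Het livers, and Elane in none, 1 and 2. B cell markers summed to 1.66 to 2.47 CPM in KO_drug, 5.25 to 8.77 CPM in KO and 1.27 to 2.86 CPM in Het. Of 3 tested, 2 rose in KO and 3 fell in KO_drug against KO. Of 6 tested T and NK cell markers (8 listed), 5 rose in KO and 3 fell in KO_drug against KO. Of 9 stellate cell markers these were 4 and 5. Of 7 endothelial markers 2 rose in KO, and 1 fell in KO_drug against KO. Of 8 erythroid markers none rose and 1 fell in KO, the globin gene Hbb-bt (-7.23, SE 2.15, edgeR adjusted p 0.0162), which was not called with KO 2 and KO 4 alone as KO. Hbb-bt had no count in 2 Het livers and in 1 KO liver, so this change rests on some of the Het livers. It had a count in every KO_drug liver. Erythroid sums were 249.8 to 759 CPM in KO_drug, 237.6 to 874 CPM in KO and 203 to 1964 CPM in Het, where Het 1 had 1964 CPM. Hepatocyte markers summed to 69890 to 88130 CPM in KO_drug, 38460 to 71550 CPM in KO and 76500 to 139800 CPM in Het, and 5 of 7 fell in KO (2 with total-count scaling, 1 with log2(FPKM + 0.1)). The part of these cell types in the levels of Afp, H19, Igf2, Gpc3 and Cd24a was not tested.

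**Figure D4:**
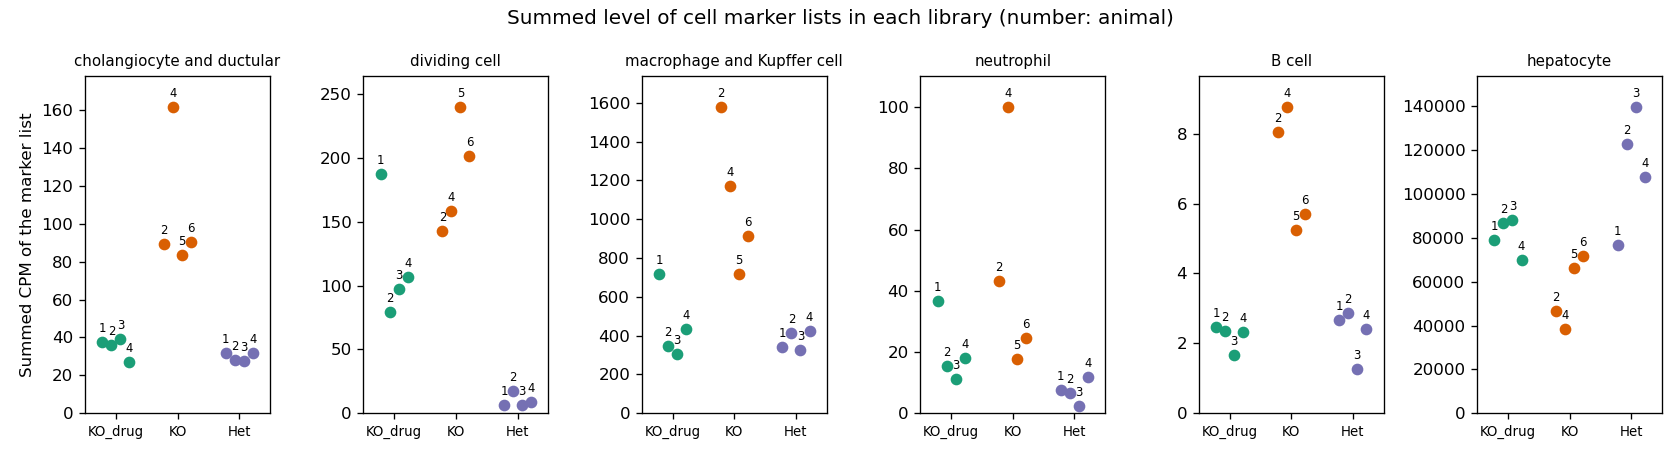
Summed CPM of 6 cell marker lists in each liver, by group; points are livers numbered by animal and each panel has its own axis from 0. Cholangiocyte, macrophage and B cell sums are highest in KO and near Het in most KO_drug livers, while the dividing cell sums of KO_drug (78.9 to 187 CPM) stay above those of Het.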

How the data were processed

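RNA of 12 flash-frozen livers was made into stranded total RNA libraries, per the labels' protocols. The submitters' processing notes list StringTie 2.1.3b, FastQC 0.11.7 and build mm10. An aligner, annotation or strand setting is not given in the sources used here. Deposited by the authors were whole-number read counts per gene and library, not normalized, and FPKM values of the same table; 3 unnamed columns were not used. Groups came from the titles. Counts of 24532 genes were filtered (edgeR filterByExpr, minimum count 10, minimum total 15), leaving 13379, and all 12 libraries entered 1 quasi-likelihood fit with TMM scaling and group means (edgeR 4.0.16, R 4.3.3). Tests were two-sided, Benjamini-Hochberg adjusted over all tested genes, and called under 0.05. SE is the log2 change divided by the square root of F. CPM values are TMM-scaled, and log2 CPM for correlations used a prior count of 2. FPKM were tested with limma 3.58.1 as log2(FPKM + 0.1) or log2(FPKM + 1), and counts with DESeq2 1.42.0, as alternatives. On simulated counts of 13379 genes, 92% of 4-fold and 60% of 2-fold changes were recovered in KO against Het. The simulated spread followed the trend over genes of like level. The 5 genes varied more than most in KO, so these rates do not apply to them. No 2 libraries were duplicates. Sequences came from RefSeq tables (GRCm38.p6), where 3 of 5 genes had a promoter window; Igf2 had 4 and is not shown. The 5 genes and all lists were chosen with earlier results of these data known. Named list genes were up to 4 called genes of smallest adjusted p per list and comparison, with 13 close relatives named whatever their p. Igdcc4, Cldn7, Ly6g, Mpo, Elane, Hbb-bt, Xist, Ddx3y, Mir675, Mir483 and Igf2os were named outside that rule. Some genes that met these rules are not reported here.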

Additional observations from a re-analysis of the deposited data

Results flagged for a closer look

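Within the 3 groups of 4, a liver stood apart from the other 3 by Dixon's criterion (its gap to the nearest of the others over the range) in 19 of 219 sets of values, or 8.68%, where chance gives about 1 in 20. Of the 5 oncofetal genes this held for 1, Gpc3 in KO_drug, where KO_drug 1 had 4.19 CPM and the other 3 had 0.662 to 1.115 CPM. KO_drug 1 also stood above the rest of its group in Spink1 (17.5 CPM against 2.70 to 3.34), Pkm (29.7 against 18.9 to 19.2) and Gpc1 (2.32 against 1.38 to 1.54).

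KO_drug 2 was highest in Igf1 (519 CPM against 260 to 294), its carrier Igfals (60.7 against 18.3 to 24.8), Hsd3b5 (60.9 against 0.202 to 5.63) and Glul (1004 against 518 to 595). KO_drug 4 was lowest in Alb (32470 CPM against 45270 to 47820) and in Sdc4 (345.9 against 422 to 434.3). Het 3 was highest in Hnf4a (956.2 CPM against 787 to 808), and Het 1 in Ghr (992.5 against 798 to 823) and Sulf1 (6.86 against 1.22 to 1.35). In KO, KO 5 was highest in Igf2bp2 (4.90 CPM against 3.03 to 3.29) and KO 2 lowest in Notum (4.25 against 7.33 to 7.65).

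Dlk1 in KO_drug 3 (0.1103 CPM), Igf2bp1 in KO_drug 4 (0.106 CPM) and Igf2bp3 in KO_drug 4 (0.159 CPM) and Het 4 (0.102 CPM) met the criterion because the other 3 livers of the group had no count.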

How the results depend on the processing

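Of 300 values of the 5 genes, 275 kept their direction and size under the alternatives, 18 moved and 7 turned sign. Size counted as kept where the log2 change moved by less than the within-group SD of the gene's log2 CPM. That margin is wide for genes that vary much in KO. H19 in KO_drug against KO, for example, counted as kept at -7.08 without KO_drug 1, from -5.63 with all livers. The 300 include fits without a liver of the group not compared, which could hardly move the value. With KO 2 and KO 4 alone as KO, KO against Het gave 6.57 for H19, 2.03 for Igf2 and 2.89 for Gpc3, and KO_drug against KO gave -2.27, -2.46 and -2.88. Correlations of deviations between livers of the same number in different groups were -0.035 to 0.136. Livers of unlike number were not set beside them, so whether the numbers pair livers was not tested. With the number as a replicate block, H19 and Igf2 were 6.92 and 2.45 in KO against Het. In KO_drug against KO they were -2.86 and -2.80. Numbers 5 and 6 occur in KO only, so this fit takes its KO changes from KO 2 and KO 4. It is therefore no separate check of the fit without KO 5 and KO 6. With the block, Gpc3 was -0.14 in KO_drug against Het. There were 1741 genes called in KO_drug against KO, where all libraries gave 2654. With log2(FPKM + 0.1), H19 was 7.75 in KO against Het and 2.49 in KO_drug against Het, Gpc3 was -0.01 there, and 4781 genes were called in KO_drug against KO. With log2(FPKM + 1), H19 and Igf2 were 4.92 and 1.51 in KO against Het, Igf2 was -1.55 in KO_drug against KO, Afp and H19 were 1.92 and 0.85 in KO_drug against Het, and 4923 genes were called in KO_drug against KO. With total counts as the scale, 4255 were called there, 354 higher and 3901 lower, against 1177 and 1477 with TMM.

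Leaving out 1 liver at a time gave 4687 to 5597 called genes in KO against Het, 1632 (without KO_drug 3) to 3066 in KO_drug against KO, with 1633 without KO 4, and 2247 to 2863 in KO_drug against Het. In KO against Het, Afp ranged over 5.18 to 5.82, H19 over 8.95 to 10.62, Igf2 over 3.55 to 4.74, Gpc3 over 4.0 to 5.02 and Cd24a over 1.87 to 3.02. In KO_drug against KO the ranges were -3.24 to -2.60, -7.08 to -4.62, -4.96 to -3.97, -5.37 to -3.97 and -2.32 to -1.03. In KO_drug against Het they were 2.33 to 2.90, 2.87 to 4.99, -0.82 to 0.18, -0.90 to 0.57 and 0.04 to 1.5. There, Gpc3 turned sign without KO_drug 1 (-0.90), Het 2 (-0.05), Het 3 (-0.17) or Het 4 (-0.16), and Igf2 without Het 1 (0.18). Among the other named genes in KO against Het, the sign turned with total-count scaling, log2(FPKM + 0.1) and log2(FPKM + 1) for Gnas (0.04, 0.05 and 0.04), Gc (0.44, 0.44 and 0.44), Gpc4 (0.36, 0.41 and 0.38) and Zhx2 (0.20, 0.18 and 0.14), and for Gc without KO 4 (0.02, in a range of -0.23 to 0.02 without 1 liver) and Gpc4 without Het 4 (0.08, range -0.27 to 0.08). Of 2620 such values 2393 kept direction and call, and 208 kept the direction only. The level of H19 in Het rests on 13 counts and that of Igf2 in KO_drug on 36; the causes of these shifts were not tested.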

Other observations

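Of the other fetal genes, Tff3, Ly6d and Pkm were highest in KO, while Fbln1 was highest in KO_drug. Tff3, a mucosal repair peptide, had a log2 change of 4.42 in KO against Het (SE 0.65, edgeR adjusted p 0.00022) and of -1.03 in KO_drug against KO (SE 0.53, edgeR adjusted p 0.194). It was above Het in KO_drug by 3.39 (SE 0.64, edgeR adjusted p 0.00211). Ly6d, a surface protein of lymphoid and epithelial cells, averaged 2.11 ± 1.02 CPM in KO_drug, 15.9 ± 11.4 CPM in KO and 0.375 ± 0.126 CPM in Het (SD, n = 4 each). Pkm, the pyruvate kinase of fetal and growing tissue, averaged 21.8 ± 5.32 CPM in KO_drug, 48.3 ± 15.0 CPM in KO and 14.8 ± 2.70 CPM in Het, and fell by 1.15 in KO_drug against KO (SE 0.23, edgeR adjusted p 0.0047). Fbln1 was highest in KO_drug, at 21.3 ± 3.89 CPM, against 7.47 ± 3.33 CPM in KO and 0.283 ± 0.267 CPM in Het.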
